A study of Mus musculus with 18 samples.

Results

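The genes described here are 47 genes of DNA replication and deoxynucleotide supply, out of 22598 genes counted in macrophages grown in culture from mouse bone marrow. They were listed by name, as genes whose products license and open replication origins, copy DNA, join its fragments, protect single strands, make DNA precursors or restore chromatin behind the fork. All 47 were found in the count tables and all 47 passed the filter on low counts. Bulk RNA sequencing covered 6 groups with 3 libraries each, all labelled wild type and all taken at 18 h. One group was labelled only as control (ctrl). Another received interferon-gamma (IFNg), a T cell and natural killer cell cytokine that switches macrophages to microbial killing. The other groups received IFNg together with a further signal: the inflammatory cytokine TNF, the inflammasome cytokine IL1b, the bacterial outer membrane component LPS, or hypoxia. These are called the TNF, IL1b, LPS and hypoxia groups, and every one of them carries IFNg as well, so effects of the signals without IFNg were not measured. The labels give neither doses, oxygen level nor age of the mice, and do not say whether libraries of a group are from different mice or dishes. The p-values therefore measure the spread between these libraries, which may be technical.

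Replication starts at origins marked by the origin recognition complex, onto which Cdc6 and Cdt1 load the ring of Mcm proteins that will unwind DNA. The kinase pair Cdc7 and Dbf4, with Cdc45, Mcm10 and the Gins complex, turns that ring into a working helicase, and polymerases held on DNA by the Pcna clamp then copy both strands. Ribonucleotide reductase, thymidylate synthase and thymidine kinase supply the deoxynucleotides. Many of these genes are transcribed as cells enter S phase under E2F transcription factors. Macrophages grown from marrow divide in culture in response to colony-stimulating factor, and activating signals are known to arrest them.

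Promoter sequence is shown because most of these genes fell together in the TNF, hypoxia and LPS groups. RefSeq windows on GRCm38.p6, running from 250 bases before to 50 bases after a start site, were matched by symbol for 39 of the 47 genes, with 46 windows in all. An E2F core was searched on both strands, spelled TTCCCGC in its first form, TTCGCGC in its next form, TTGCCGC in a further form and TTGGCGC in its last form. It was found in 30 of the 46 windows (65.2%), which belong to 26 genes. The same spellings were found in 9.57% of all 32851 windows of that table and in 16.5% of the 11721 windows of genes tested here. A CCAAT box stood in 54.3% of the member windows against 37.4% of all windows, and a cell cycle homology region, searched as TTTGAA or TTCGAA, in 21.7% against 19.2%. In windows of genes tested here the shares were 37.8% for the CCAAT box and 13.9% for the homology region. The spellings can overlap, and TTGGCGC on one strand and TTCGCGC on the other share bases in Mcm5 and Mcm6. The 6 stretches below are the 170 bases just before the RefSeq start of 6 genes, read 5′ to 3′ on the coding strand, with E2F cores in capitals. Of the Mcm genes, Mcm2 is shown because it had the largest fall with TNF, Mcm6 because it had the smallest with hypoxia, and Mcm5 beside them for its cores. Pola1, Rrm1 and Chaf1a stand for polymerase, deoxynucleotide and chromatin genes.
Mcm2, chr6:88898781-88898950, minus strand: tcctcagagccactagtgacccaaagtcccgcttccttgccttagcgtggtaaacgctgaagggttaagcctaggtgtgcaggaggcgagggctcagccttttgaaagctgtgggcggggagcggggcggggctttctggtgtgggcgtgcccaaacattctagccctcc
Mcm5, chr8:75109339-75109508, plus strand: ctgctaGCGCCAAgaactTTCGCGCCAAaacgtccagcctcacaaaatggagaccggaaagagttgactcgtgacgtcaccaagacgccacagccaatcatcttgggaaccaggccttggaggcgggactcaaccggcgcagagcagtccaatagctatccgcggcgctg
Mcm6, chr1:128359706-128359875, minus strand: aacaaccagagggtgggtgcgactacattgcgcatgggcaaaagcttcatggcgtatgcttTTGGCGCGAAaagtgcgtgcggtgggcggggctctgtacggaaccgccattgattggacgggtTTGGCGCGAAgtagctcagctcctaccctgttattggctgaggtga
Pola1, chrX:93632156-93632325, minus strand: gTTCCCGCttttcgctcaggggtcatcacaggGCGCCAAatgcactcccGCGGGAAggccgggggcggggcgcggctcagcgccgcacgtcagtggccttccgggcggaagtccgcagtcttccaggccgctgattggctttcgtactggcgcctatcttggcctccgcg
Rrm1, chr7:102441525-102441694, plus strand: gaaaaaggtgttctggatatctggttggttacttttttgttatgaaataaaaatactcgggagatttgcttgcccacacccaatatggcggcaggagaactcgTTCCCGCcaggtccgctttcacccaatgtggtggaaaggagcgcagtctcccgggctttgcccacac
Chaf1a, chr17:56040246-56040415, plus strand: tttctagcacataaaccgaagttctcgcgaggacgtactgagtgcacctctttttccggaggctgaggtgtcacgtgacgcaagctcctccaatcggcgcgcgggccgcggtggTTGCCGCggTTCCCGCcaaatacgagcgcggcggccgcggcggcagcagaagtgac

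The Mcm2 window holds none of the 4 spellings. With TNF, the 26 genes with a core had a median log2 fold change of -2.34 against IFNg, and the 13 genes with a window but no core had -2.12. With hypoxia the medians were -1.99 and -1.69, and with LPS -1.36 and -1.39. These medians are descriptions, and whether a core bears on the fall was not tested.

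The libraries held 12270565 to 20952799 counts, and the 47 genes together took 0.1868 to 0.2354% of the counts in the control, IFNg and IL1b libraries and 0.04644 to 0.1012% in the others. Levels are counts-per-million (CPM) after TMM scaling, on which 3 counts in a library equal 0.151 to 0.255 CPM. Macrophage markers summed to 13756 CPM or more in each library, with Csf1r, Adgre1 and Cd68 abundant throughout. Ms4a1 and Pax5 of B cells and Cd3d, Cd3e and Cd3g of T cells were at 0 counts in all 18 libraries. Il7r and Cd247 of the T cell list and Ighm and Cd79b of the B cell list were detected. Ighm had a mean of 639 CPM in the control and 534 with IFNg. Scaling to the library totals implied by the deposited RPKM values lowered the median of all genes from -0.05 to -0.37 with TNF, from -0.01 to -0.26 with hypoxia and from -0.01 to -0.17 for IFNg against control, all on the log2 scale.

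Expression of the replication genes was high in the control, IFNg and IL1b groups and low in the other three. Summed over the 47 genes, the control libraries held 1617 to 1690 CPM, IFNg 2033 to 2093 and IL1b 2049 to 2167. The LPS libraries held 901 to 1023 CPM, hypoxia 766 to 819 and TNF 565 to 619. The LPS, hypoxia and TNF libraries did not overlap each other or any of the first groups, while those of IFNg and IL1b overlapped. By gene, the lowest mean level was in the TNF group for 32 genes, in the hypoxia group for 14 and in the control for 1, Pold3. The highest mean was in the IL1b group for 27, in IFNg for 13, in the control for 6 and in the TNF group for Pold3.

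**Figure D1:**
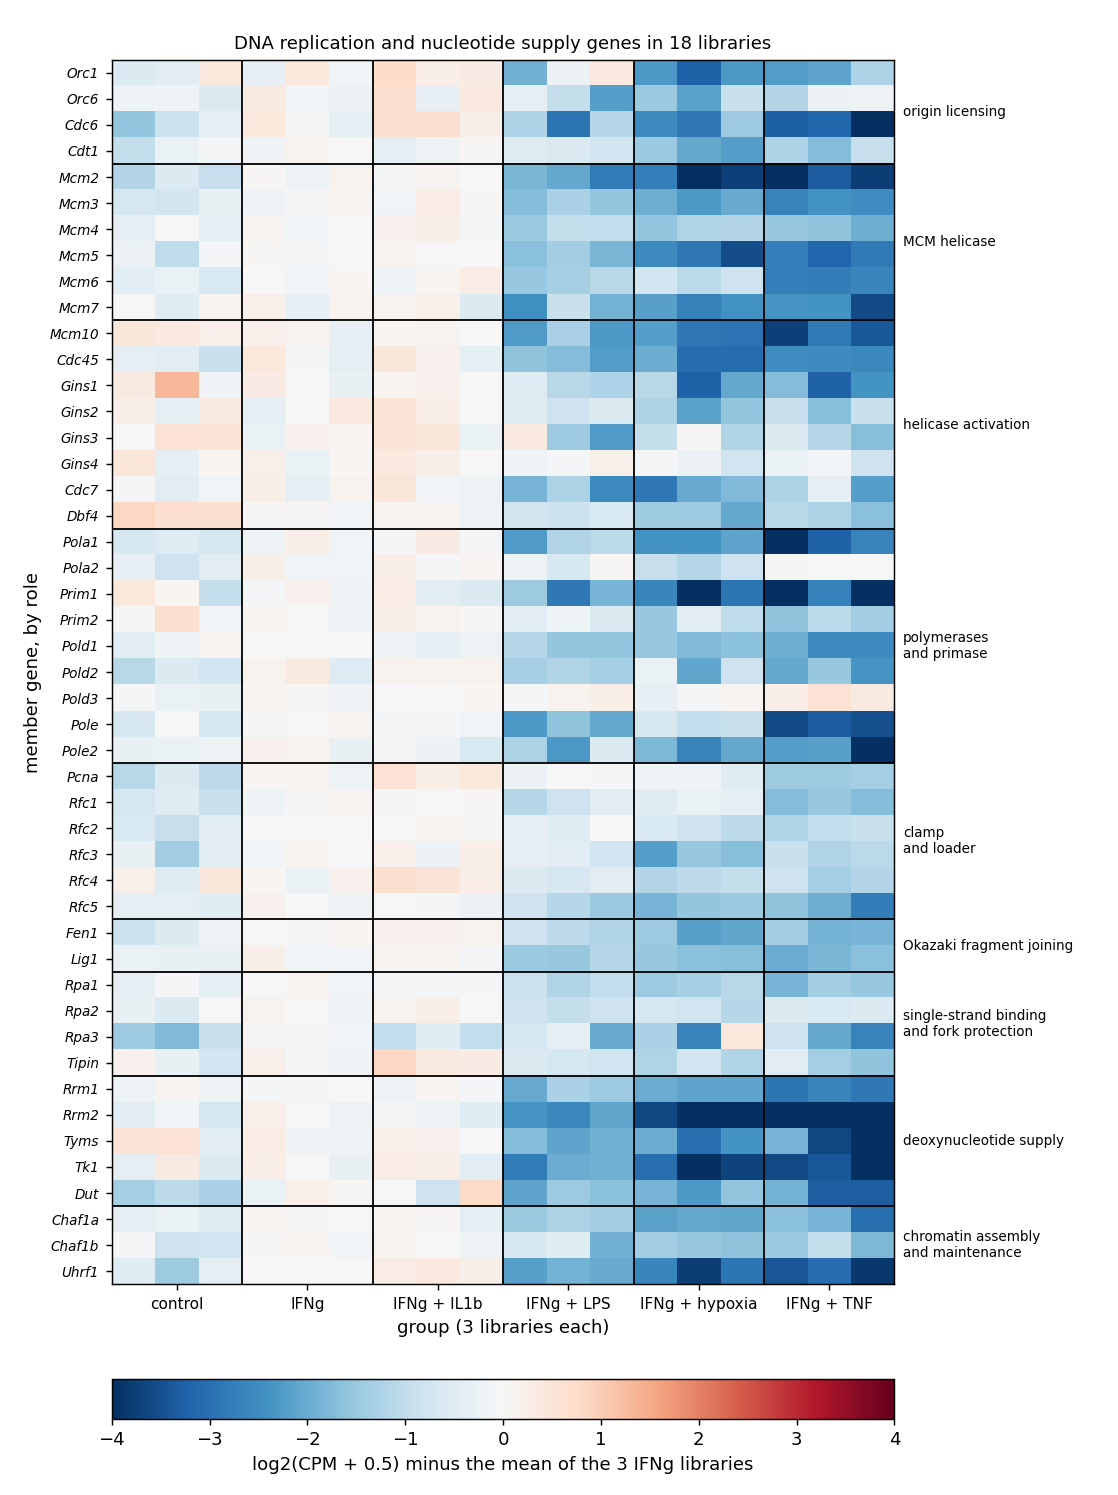
Level of each of the 47 genes (rows, by role) in each of the 18 libraries (columns, by group), as log2(CPM + 0.5) minus the mean of the 3 IFNg libraries. Blue is lower and red higher than IFNg alone, and most rows are blue in the LPS, hypoxia and TNF columns, with Pola2 and Pold3 pale under TNF.

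Per kilobase of coding length, levels with IFNg alone ranged from 1.71 CPM per kb for Orc1 and 2.16 for Cdc7 to 70.4 for Rfc2 and 83.2 for Rrm1. The Mcm2 to Mcm7 proteins form a ring with 1 copy of each, but their transcripts were not equal. In that group Mcm6 stood at 58.1, Mcm5 at 48.7, Mcm3 at 43.1, Mcm4 at 26.3, Mcm2 at 14.5 and Mcm7 at 13 CPM per kb.

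IFNg alone was compared with the control. Against control, 6 genes rose and 1 fell with IFNg at an edgeR adjusted p under 0.05, while 23.6% of all 11563 genes tested were called. The 7 genes are 14.9% of the 47, a share under that background, so the count is not a result about these genes. Of all genes, 13.5% were called as higher. The median log2 fold change of the 47 was 0.35, against -0.01 over all genes, both with TMM scaling. Its size depends on the scaling, since RPKM library totals lower the median of all genes in this comparison. Pcna, the sliding clamp, stood at 9.99, 14.7 and 10.4 CPM in the control libraries and at 23.1, 23.8 and 19.1 with IFNg. The groups did not overlap, and the log2 fold change was 0.92 ± 0.21 (SE; adjusted p = 0.00171). Pcna has processed pseudogenes (Pcna-ps1, Pcna-ps2) that could share its reads. The clamp loader genes Rfc1 (0.68 ± 0.14, adjusted p = 0.000523) and Rfc2 (0.66 ± 0.16, adjusted p = 0.00211) rose in the same comparison. Mcm3 (0.56), Mcm6 (0.44) and Pola2 (0.53) were also called. With RPKM library totals Mcm6 was at 0.28 (adjusted p = 0.142) and Pola2 at 0.38 (adjusted p = 0.137). Mcm6 lost its call without IFNg library 1 or 3 or control library 3 (adjusted p = 0.0507, 0.0897 and 0.105), Pola2 without IFNg library 1 or control library 2 (0.164 and 0.158), and Mcm3 without control library 2 (0.0604).

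Dbf4, the subunit that activates the origin-firing kinase Cdc7, went the other way. It stood at 89.4, 79.2 and 76.9 CPM in the control and at 51.5, 52.2 and 46.5 with IFNg, with no overlap. The log2 fold change was -0.71 ± 0.18 (adjusted p = 0.00321). Its partner Cdc7 was low in both groups, at 2.57 to 3.48 and 2.65 to 4.33 CPM, and was not called (0.23 ± 0.75, adjusted p = 0.881).

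A list of 22 mitosis genes was measured in the same libraries. Of these, 13 (59.1%) fell with IFNg against control, where 23.6% of all genes were called in either direction, and the median log2 fold change was -1.11. Their summed level was 3052 to 3834 CPM in the control and 1452 to 1836 with IFNg, without overlap. The summed level of the 47 replication genes was higher in all 3 IFNg libraries than in all 3 control libraries. Cdc20, which triggers anaphase, fell by 1.85 on the log2 scale (SE 0.31, adjusted p = 5.29e-05) and the mitotic cyclin gene Ccnb2 fell by 1.64 (SE 0.32, adjusted p = 0.000641). With the additions the summed level of the mitosis genes was also under IFNg, at 314 to 348 CPM with LPS, 241 to 391 with hypoxia and 100 to 154 with TNF. With IL1b it was at 1186 to 1597 CPM, which overlaps IFNg. Whether the lists differ was not tested. Dendritic cell markers, mostly Clec9a, also moved between these groups, from 2.38 to 4.04 CPM in the control to 88.5 to 94.6 with IFNg, as did the T cell list, mostly Il7r, from 120 to 135 CPM to 41.1 to 59. Their part was not tested.

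**Figure D2:**
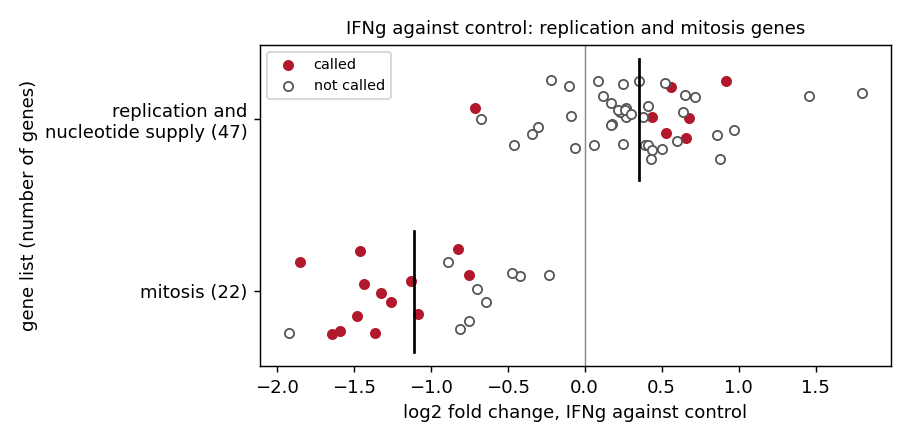
Log2 fold change of IFNg against control (x axis) for each of the 47 replication genes and 22 mitosis genes, with vertical bars at the medians of 0.35 and -1.11. Filled points were called at an adjusted p under 0.05, 6 replication genes to the right and 1 to the left, and 13 mitosis genes, all to the left.

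TNF, hypoxia and LPS, each given with IFNg, were compared with IFNg alone. These comparisons share the same 3 IFNg libraries, so each is given with its own values. With TNF, 40 genes fell and 1 rose, where 44.7% of all genes tested were called, 22.6% as lower and 22.1% as higher. With hypoxia 41 genes fell, where 25.2% of all genes were called and 11.8% as lower. With LPS 28 genes fell, where 20.3% of all genes were called and 10.1% as lower. The share of the 47 called, 87.2% with TNF, 87.2% with hypoxia and 59.6% with LPS, was above the background each time. Median log2 fold changes were -2.09, -1.75 and -1.16 in that order, against -0.05, -0.01 and 0.00 over all genes. Falls of 8-fold or more were called for 13 of the 47 genes with TNF and 7 with hypoxia, against 3.59% and 0.977% of all genes. The libraries did not overlap IFNg for 43 of the 47 genes with TNF, 41 with hypoxia and 40 with LPS, against 53.4%, 43.2% and 33.7% of all genes.

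Genes of other cell types moved with these groups. Of the 10 granulocyte markers, 9 fell with TNF and 8 with LPS, where 22.6% and 10.1% of all genes were called as lower. Their summed level was 110 to 131 CPM with IFNg, 67.1 to 95 with hypoxia, 28.7 to 44.4 with LPS and 11 to 15 with TNF. Elane, a protease of granulocyte precursors, was at 0 counts in the TNF and LPS groups. The B cell list, which here is Ighm and Cd79b, stood at 505 to 579 CPM with IFNg, 250 to 283 with hypoxia, 63.3 to 110 with LPS and 7.28 to 12.6 with TNF. Dendritic cell markers stood at 88.5 to 94.6 CPM with IFNg, 115 to 145 with hypoxia, 22.8 to 33.5 with LPS and 17 to 18.3 with TNF. The T cell list stood at 41.1 to 59 CPM with IFNg, 85.1 to 106 with hypoxia, 117 to 210 with LPS and 180 to 282 with TNF. Nearly all of it was Il7r, which rose with TNF (2.21 ± 0.21), LPS (1.56 ± 0.21) and hypoxia (0.85 ± 0.20), while Cd247, at 4.83 CPM or less, rose with TNF (3.18 ± 1.22). Early progenitor markers stood at 6.63 to 10.9 CPM with IFNg and 3.24 to 6.21 with hypoxia. They were at 1.51 to 3.41 CPM with LPS and 3.06 to 5.85 with TNF. Cd34 was lower under TNF (-3.69 ± 1.19) and LPS (-3.39 ± 1.16). Kit went the other way with TNF, from a mean of 1.11 CPM with IFNg to 3.33, without overlap. It was not called (1.58 ± 0.79, edgeR adjusted p = 0.105). The part of these lists in the fall of the replication genes was not tested. In bulk RNA, fewer dividing cells and less RNA of a gene per cell cannot be told apart.

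**Figure D3:**
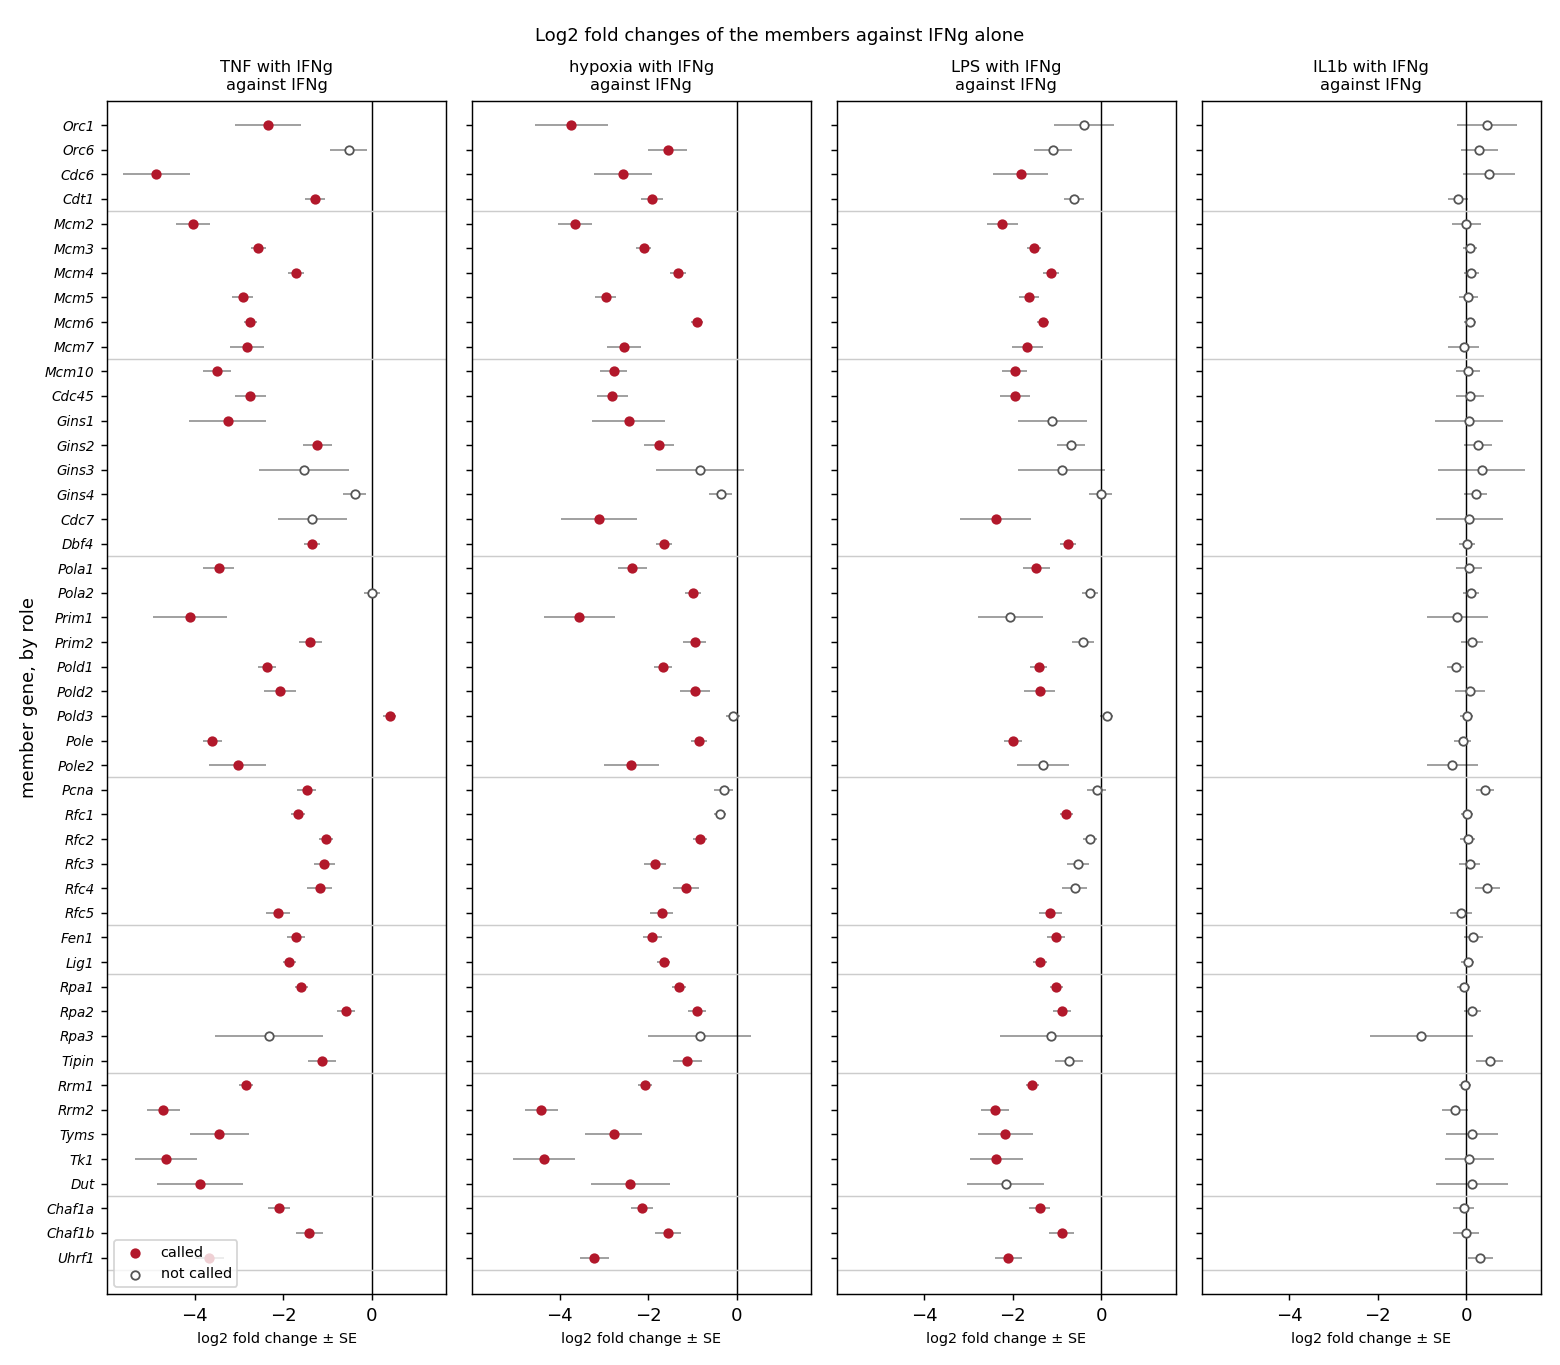
Log2 fold change ± SE of each of the 47 genes (rows, by role) against IFNg alone with TNF, hypoxia, LPS or IL1b added. Filled points were called at an adjusted p under 0.05, 41 genes with TNF, 41 with hypoxia, 28 with LPS and 0 with IL1b.

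Of the origin licensing genes, Cdc6, a loader of the Mcm ring, fell most with TNF and Orc1 fell most with hypoxia. Cdc6 stood at 10.1, 7.18 and 5.67 CPM with IFNg and at 0.333, 0.394 and 0 with TNF. The TNF values came from 12 counts over 3 libraries, and the groups lay far apart, with a log2 fold change of -4.87 ± 0.76 (adjusted p = 6.7e-06). Its fold change was -2.57 ± 0.65 with hypoxia and -1.82 ± 0.62 with LPS, and the LPS call was lost without IFNg library 1 or 2 or LPS library 2 (adjusted p = 0.139, 0.069 and 0.164). Orc6, a subunit of the origin recognition complex, stood at 13.9, 9.89 and 9.16 CPM with IFNg and at 4.56, 9.2 and 9.26 with TNF. These overlap, and the fold change was -0.52 ± 0.42 (adjusted p = 0.341). With hypoxia Orc6 was at 3.58, 2.04 and 5.56 CPM and fell by 1.55 on the log2 scale (SE 0.44, adjusted p = 0.00998), a call lost without IFNg library 1 or hypoxia library 2 (adjusted p = 0.0522 and 0.0641).

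Orc1, the largest subunit of that complex, differed between the additions. It stood at 3.23, 5.83 and 3.9 CPM with IFNg, at 0.464, 0 and 0.463 with hypoxia and at 0.5, 0.592 and 1.49 with TNF. Both groups lay under IFNg, at -3.73 ± 0.82 with hypoxia (adjusted p = 0.00106) and -2.34 ± 0.74 with TNF (adjusted p = 0.0111), although the hypoxia libraries held only 13 counts in all. With LPS it was at 0.753, 3.51 and 5.64 CPM, which overlaps IFNg, and it was not called. An antisense transcript, Gm12743, overlaps Orc1, and whether the counting used strand is not given in the sources. Cdt1, the other loader, fell with TNF (-1.29 ± 0.23) and hypoxia (-1.91 ± 0.24), and with LPS stood at -0.62 ± 0.23 (adjusted p = 0.0562).

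All 6 genes of the Mcm ring fell with TNF, with hypoxia and with LPS, against 22.6%, 11.8% and 10.1% of all genes. Mcm2 stood at 40.9, 33.8 and 43.6 CPM with IFNg, at 1.39, 3.42 and 2.43 with TNF, at 5.5, 1.28 and 2.47 with hypoxia and at 10.7, 9.06 and 5.16 with LPS. No library of the 3 additions reached the lowest IFNg library. The log2 fold changes were -4.04 ± 0.39 with TNF (adjusted p = 5.23e-09), -3.65 ± 0.38 with hypoxia (8.78e-08) and -2.24 ± 0.35 with LPS (2.85e-05). Mcm4 changed least with TNF, from 73.4, 63.5 and 67.1 CPM to 23.3, 22 and 17.1. The groups were still apart, at -1.71 ± 0.18 (adjusted p = 1.06e-08), with -1.32 ± 0.18 under hypoxia and -1.14 ± 0.18 under LPS. Mcm3, Mcm5 and Mcm7 fell by 2.56, 2.92 and 2.82 on the log2 scale with TNF and by 2.10, 2.96 and 2.54 with hypoxia.

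Mcm6 had the smallest fall of the ring genes under hypoxia. It was at 146, 136 and 155 CPM with IFNg, 85.6, 68.1 and 81.4 with hypoxia, 50.5, 58.2 and 66.6 with LPS and 21.2, 21 and 23.2 with TNF. The 4 groups did not overlap, and hypoxia lay nearest to IFNg. The fold changes were -0.89 ± 0.14 with hypoxia (adjusted p = 2.03e-05), -1.32 ± 0.14 with LPS and -2.74 ± 0.15 with TNF.

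Among the helicase activators, 5 of 8 fell with TNF, 6 with hypoxia and 4 with LPS. Of all genes, 22.6%, 11.8% and 10.1% were called as lower in that order, and so small a role was not tested as a set. Mcm10, which helps the helicase open, stood at 36.3, 34.1 and 24.5 CPM with IFNg and at 1.89, 4.01 and 2.51 with TNF. The groups did not overlap, at -3.50 ± 0.32 (adjusted p = 5.92e-10). Its fold changes were -2.78 ± 0.30 with hypoxia and -1.96 ± 0.29 with LPS. Gins4, a subunit of the 4-membered Gins complex, changed least, from 20.4, 14.4 and 18.5 CPM to 14.6, 16.4 and 9.65 with TNF. These libraries overlap, and Gins4 was not called with TNF (-0.39 ± 0.26, adjusted p = 0.246), hypoxia (-0.36 ± 0.26) or LPS (-0.01 ± 0.26).

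The other Gins genes were not alike. Gins1 fell by 3.25 on the log2 scale with TNF (SE 0.87, adjusted p = 0.0033) and Gins2 by 1.23 (SE 0.33, adjusted p = 0.0032). Gins3, at only 1.51 to 2.18 CPM with IFNg, had a fold change of -1.53 ± 1.02 with TNF and was not called. Gins1 with hypoxia lost its call without IFNg library 1 or 2 (adjusted p = 0.0941 and 0.0562) or hypoxia library 2 or 3 (0.103 and 0.101). Cdc45, which joins Gins and the Mcm ring, fell by 2.74 with TNF, 2.81 with hypoxia and 1.95 with LPS.

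The kinase pair had its lowest means under hypoxia, though neither gene was called between hypoxia and TNF. Cdc7 stood at 4.33, 2.65 and 4.03 CPM with IFNg and at 0.0662, 0.511 and 0.695 with hypoxia, which is 16 counts in all. The groups did not overlap, at -3.11 ± 0.86 (adjusted p = 0.00795). With TNF it was at 1.22, 2.69 and 0.392 CPM, which overlaps IFNg, and it was not called (-1.34 ± 0.77, adjusted p = 0.166). With LPS it fell (-2.39 ± 0.81, adjusted p = 0.0353), a call lost without IFNg library 1 or 3 or LPS library 1 or 3 (adjusted p = 0.0831 to 0.119). Dbf4 fell in each, by 1.64 on the log2 scale with hypoxia, 1.35 with TNF and 0.75 with LPS.

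The polymerase and primase genes split. Prim1, the catalytic subunit of primase, stood at 17.1, 20.3 and 16.3 CPM with IFNg and at 0.667, 2.3 and 0.0785 with TNF. It fell by 4.11 on the log2 scale with TNF (SE 0.83, adjusted p = 0.000598) and by 3.55 with hypoxia (SE 0.80, adjusted p = 0.00333). With LPS it stood at 6.32, 2.03 and 4.53 CPM, apart from IFNg but not called (-2.06 ± 0.73, adjusted p = 0.0562). Pola1, the catalytic subunit of the polymerase that works with primase, fell by 3.46 with TNF, 2.36 with hypoxia and 1.47 with LPS.

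Pola2, the regulatory subunit paired with Pola1, did not follow it under TNF. It stood at 61.1, 48.2 and 48.3 CPM with IFNg and at 53.4, 51.9 and 52.4 with TNF. All 3 TNF libraries lay within the IFNg range (0.00 ± 0.18, adjusted p = 1.0). With hypoxia it was at 27.6, 23.5 and 29 CPM, under every IFNg library, and fell by 0.98 on the log2 scale (SE 0.18, adjusted p = 0.000158).

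Pold3, an accessory subunit of the lagging-strand polymerase, was the 1 gene that rose with TNF. It stood at 47.3, 45.2 and 39.8 CPM with IFNg and at 52.5, 65.6 and 56.2 with TNF. The groups did not overlap, but the rise was small, at 0.40 ± 0.15 (adjusted p = 0.0383). It was 0.08 with RPKM library totals (adjusted p = 0.726). The call was also lost without IFNg library 2 or 3 (adjusted p = 0.0681 and 0.151) or TNF library 2 or 3 (0.175 and 0.0566). Pold1 and Pold2, the catalytic and second subunits of that polymerase, fell by 2.37 and 2.08 with TNF. With hypoxia Pold2 was at -0.94 ± 0.34, where its libraries overlap IFNg, and the call was lost without IFNg library 1 or 2 or hypoxia library 2 or 3 (adjusted p = 0.0918 to 0.23). Prim2, the large primase subunit, fell by 1.39 with TNF and 0.95 with hypoxia, the latter lost without hypoxia library 1 (adjusted p = 0.0578).

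Pole, the catalytic subunit of the leading-strand polymerase, separated TNF and LPS from hypoxia. It stood at 61.3, 65.3 and 68.6 CPM with IFNg, 41.3, 32.4 and 34.5 with hypoxia, 12.8, 20.8 and 15.4 with LPS and 4.95, 5.98 and 5.18 with TNF. The 4 groups did not overlap. The fold changes were -0.85 ± 0.19 with hypoxia (adjusted p = 0.00137), -1.99 ± 0.20 with LPS (1.75e-08) and -3.60 ± 0.22 with TNF (2.33e-13). Pole2, its small partner, had -2.38 ± 0.62 with hypoxia and -3.03 ± 0.64 with TNF, and with LPS -1.32 ± 0.58 (adjusted p = 0.121). Genes that overlap Pole (Gm15792, antisense) and Pole2 (Gm49384, same strand) could share reads with them.

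Of the clamp and its loader, all 6 genes fell with TNF, 4 with hypoxia and 2 with LPS. The shares of all genes called as lower were 22.6%, 11.8% and 10.1%, and 2 genes with LPS are too few to be a result about the role. Rfc5, a loader subunit, stood at 30, 26 and 23.5 CPM with IFNg and at 8.22, 6.51 and 3.45 with TNF, apart, at -2.12 ± 0.27 (adjusted p = 2.53e-07). Rfc2, another loader subunit, stood at 75.1, 74 and 72.8 CPM with IFNg and at 32.1, 36.9 and 39.5 with TNF, also apart, at -1.03 ± 0.16 (adjusted p = 5.15e-06). Rfc3 fell by 1.07 with TNF and 1.84 with hypoxia, and Rfc4, whose exons overlap Eif4a2 on the other strand, by 1.18 and 1.14.

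Pcna and Rfc1 were called with TNF and not with hypoxia. Pcna stood at 7.89, 7.82 and 8.16 CPM with TNF, under the lowest IFNg library of 19.1, and fell by 1.47 on the log2 scale (SE 0.22, adjusted p = 3.12e-06). With hypoxia it was at 19.3, 19.4 and 15.5 CPM and with LPS at 18.6, 21.5 and 21.3. Both overlap IFNg, and the fold changes were -0.29 ± 0.21 (adjusted p = 0.363) and -0.11 ± 0.21 (adjusted p = 0.812). Rfc1, the large loader subunit, was at 183, 211 and 221 CPM with IFNg and at 60.9, 71.2 and 61.1 with TNF, a fall of 1.67 (SE 0.15, adjusted p = 2.84e-10). With hypoxia it was at 146, 170 and 159 CPM, all under the IFNg libraries but just outside the threshold (-0.37 ± 0.14, adjusted p = 0.0531).

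Both genes of Okazaki fragment joining fell with TNF, hypoxia and LPS, against 22.6%, 11.8% and 10.1% of all genes. Lig1, the ligase that seals the fragments, stood at 98.1, 78.5 and 77.2 CPM with IFNg and at 21, 23.1 and 26 with TNF. The fall was 1.86 on the log2 scale with TNF (SE 0.15, adjusted p = 9.95e-11), 1.65 with hypoxia and 1.39 with LPS. Fen1, the flap nuclease that trims them, stood at 52.6, 49.4 and 55 CPM with IFNg and at 19.8, 13.7 and 14.1 with TNF, and the antisense gene Gm10143 overlaps it. Its fall was 1.71 with TNF (SE 0.21, adjusted p = 1.97e-07), 1.90 with hypoxia and 1.03 with LPS.

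Of the single-strand binding subunits, Rpa1 fell by 1.59 on the log2 scale with TNF, 1.30 with hypoxia and 1.02 with LPS. Rpa2, the middle subunit, stood at 29.5, 26.9 and 24.3 CPM with IFNg and at 18.4, 17.6 and 18 with TNF. The groups were apart by a small margin, at -0.58 ± 0.20 (adjusted p = 0.0209), and the call was lost without IFNg library 1 or TNF library 2 (adjusted p = 0.0846 and 0.0563). Rpa2 was at -0.90 ± 0.20 with hypoxia and -0.89 ± 0.20 with LPS, and neither differed from TNF by a called amount. Rpa3, the small subunit, stood at 2.81, 2.77 and 2.46 CPM with IFNg and at 1.28, 0.263 and 0 with TNF. Those libraries did not overlap, but the fold change of -2.33 ± 1.22, from low counts, was not called (adjusted p = 0.125). Tipin, which protects stalled forks, fell by 1.12 with TNF and 1.11 with hypoxia, the latter just lost without IFNg library 1 or hypoxia library 1 (adjusted p = 0.0502 and 0.0501).

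Deoxynucleotide supply had the lowest median of the roles with TNF, at -3.89. Rrm2, the regulatory subunit of ribonucleotide reductase whose level limits the enzyme, stood at 55.1, 47.2 and 40.8 CPM with IFNg. It was at 2.39, 2.5 and 0.392 with TNF, 3.31, 1.45 and 1.85 with hypoxia and 8.86, 7.52 and 10.8 with LPS. No library of these groups came near IFNg, and TNF and hypoxia overlapped each other. The fold changes were -4.71 ± 0.37 with TNF (adjusted p = 1.29e-10), -4.41 ± 0.37 with hypoxia (1.96e-09) and -2.40 ± 0.32 with LPS (3.6e-06). Rrm1, the catalytic subunit, stood at 186, 206 and 201 CPM with IFNg and at 26, 30.5 and 26.6 with TNF. It fell by 2.84 with TNF (SE 0.15, adjusted p = 2.67e-14), 2.07 with hypoxia and 1.56 with LPS, less in each than Rrm2.

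Of the thymidine enzymes, Tk1 fell about as steeply as Rrm2, and Tyms fell less. Tk1, the S phase thymidine kinase, stood at 18.6, 15.4 and 12.3 CPM with IFNg, at 0.778, 0.986 and 0 with TNF and at 1.46, 0 and 0.695 with hypoxia. It fell by 4.64 on the log2 scale with TNF (SE 0.70), 4.35 with hypoxia (SE 0.69) and 2.37 with LPS (SE 0.60). Tyms, thymidylate synthase, fell by 3.44 with TNF, 2.78 with hypoxia and 2.17 with LPS, the last call lost without LPS library 2 (adjusted p = 0.061), and the pseudogene Tyms-ps could share its reads. Dut, which removes dUTP, was called with TNF (-3.89 ± 0.97, from 15 counts in the TNF group) and barely with hypoxia (-2.40 ± 0.89, adjusted p = 0.0491). That hypoxia call was lost without each single library of either group (adjusted p = 0.0747 to 0.145).

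The 3 genes that rebuild chromatin and its methylation behind the fork fell with TNF, hypoxia and LPS. Of all genes, 22.6%, 11.8% and 10.1% were called as lower there. Uhrf1, which brings the maintenance methyltransferase to new DNA, stood at 27.3, 26.9 and 26.8 CPM with IFNg, 2.06, 2.83 and 1.41 with TNF, 3.97, 1.53 and 3.17 with hypoxia and 5.62, 6.86 and 6.34 with LPS. TNF and hypoxia overlapped each other and lay under LPS. The fold changes were -3.67 ± 0.33, -3.21 ± 0.33 and -2.10 ± 0.30 in that order (adjusted p = 6.51e-10, 2.5e-08 and 6.74e-06). Chaf1b, a subunit of the histone chaperone CAF-1, stood at 28.5, 29.4 and 25.8 CPM with IFNg and at 9.73, 14.1 and 7.61 with TNF, apart, at -1.41 ± 0.30 (adjusted p = 0.000328). With LPS it was at -0.90 ± 0.29, a call lost without LPS library 3 (adjusted p = 0.155) or IFNg library 1 or 2 (0.0711 and 0.0804). Chaf1a, the large subunit, fell by 2.09 with TNF, 2.14 with hypoxia and 1.39 with LPS, and Ubxn6 overlaps it on the other strand.

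**Figure D4:**
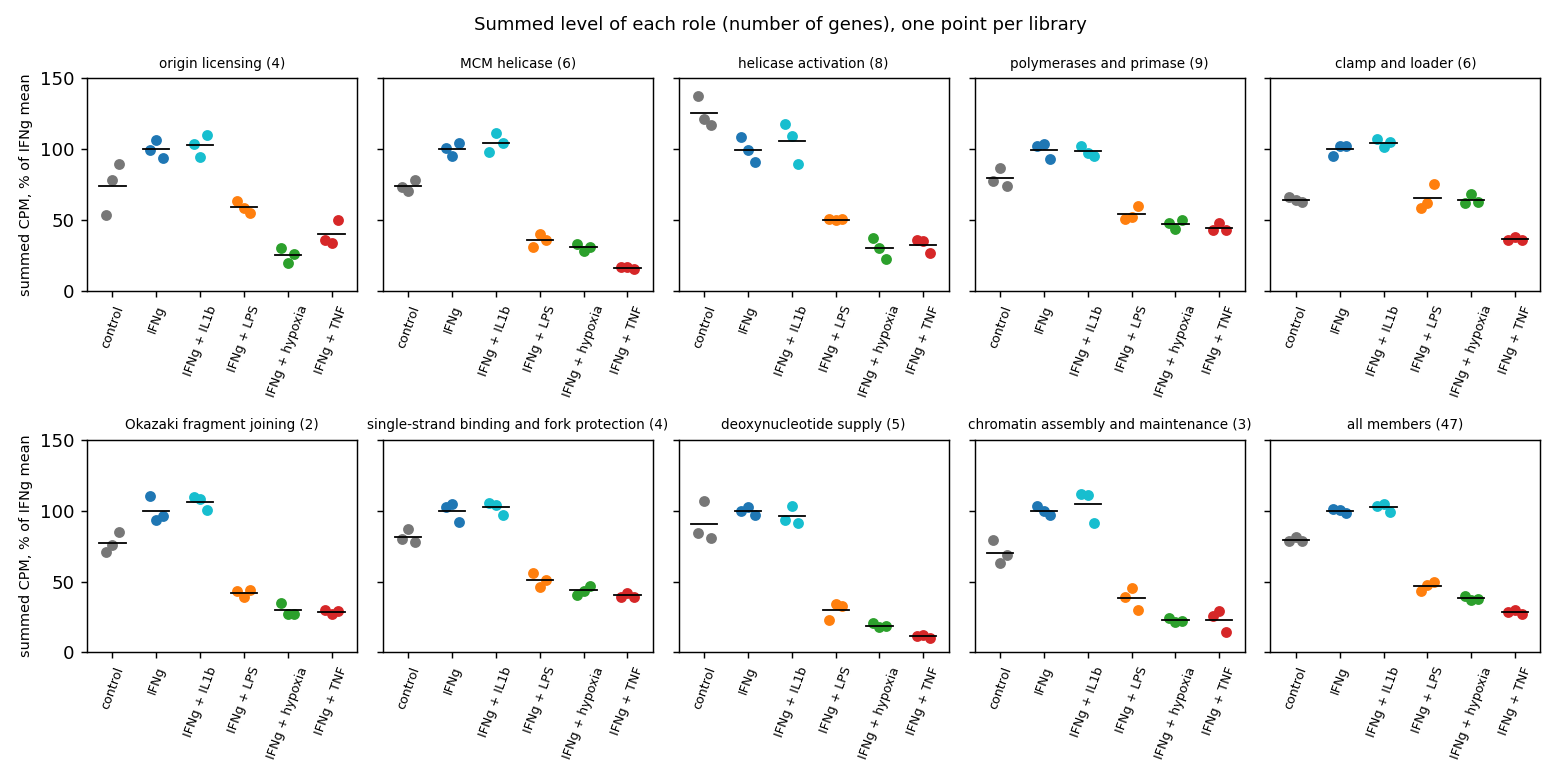
Summed CPM of the genes of each role in each library, as a percent of the mean of the 3 IFNg libraries, with 1 point per library and a bar at each group's mean. The all-gene panel shows the control, IFNg and IL1b libraries above the LPS, hypoxia and TNF libraries, and the clamp and loader panel shows hypoxia well above TNF.

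IL1b left no gene of the list called. The edgeR test called 0 of 47 (0.303% of all genes), with 0 at an unadjusted p under 0.05, and DESeq2 also called 0. At an unadjusted p under 0.05, edgeR listed 5.15% of all genes in this comparison. The median log2 fold change of the 47 was 0.07, and values ran from -1.01 for the sparsely counted Rpa3 to 0.53 for Tipin. The best measured genes had narrow errors, such as Rrm1 at -0.03 ± 0.14, Mcm6 at 0.09 ± 0.14 and Rpa1 at -0.06 ± 0.15. Pcna stood at 32.8, 26 and 29.4 CPM with IL1b, above the 3 IFNg libraries, and was not called (0.42 ± 0.21, adjusted p = 1).

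LPS was then set directly against TNF and against hypoxia. Against TNF, 27 of the 47 genes were higher with LPS, with a median log2 fold change of 0.95, while 25.3% of all genes were called and 12.2% as higher. All 6 Mcm genes were among them, led by Mcm2 (1.79 ± 0.38) and Mcm6 (1.42 ± 0.15). Mcm4 and Mcm7 lost this call without LPS library 2 (adjusted p = 0.0972 and 0.309) or TNF library 3 (0.111 and 0.122), and Mcm4 also without LPS library 3 (0.0671). Rrm2 was at 2.31 ± 0.36 (adjusted p = 2.52e-05), with the LPS libraries at 7.52 to 10.8 CPM and the TNF libraries at 0.392 to 2.5. Against hypoxia, 18 genes were higher with LPS and 3 lower, with 30.0% of all genes called, 14.4% as higher and 15.5% as lower, and a median of 0.62. Orc1 differed most, at 3.34 ± 0.81 (adjusted p = 0.00224). The 3 lower genes were Pole (-1.14 ± 0.20, adjusted p = 4.95e-05), Mcm6 (-0.43 ± 0.14, adjusted p = 0.022) and Rfc1 (-0.42 ± 0.14, adjusted p = 0.0268). With RPKM library totals the split was 25 higher and 1 lower, since Mcm6 (adjusted p = 0.172) and Rfc1 (0.213) were no longer called. Mcm6 also lost its call without LPS library 1 or 2 or hypoxia library 1 or 3 (adjusted p = 0.058 to 0.157), and Rfc1 without LPS library 1 or 2 or hypoxia library 2 or 3 (0.0657 to 0.251). Without LPS library 2, 13 genes were called in this comparison instead of 21.

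Hypoxia was set against TNF after the data had been seen. Here 10 genes were higher with hypoxia and 4 lower, and 39.0% of all genes were called, 20.1% as higher and 18.9% as lower, so the 29.8% of the 47 is under the background and is no result about the list. The genes that differed are given as single measurements. Pole was higher with hypoxia by 2.75 ± 0.21 on the log2 scale (adjusted p = 4.15e-11), Mcm6 by 1.85 ± 0.15 (5.95e-11), Rfc1 by 1.30 ± 0.14 (3.43e-08) and Pcna by 1.18 ± 0.22 (7.82e-05). Cdc6 was also higher (2.30 ± 0.77, adjusted p = 0.0182), from very low counts, and lost its call without TNF library 3 or hypoxia library 3 (adjusted p = 0.0708 and 0.174). Rrm1, Pola1, Pold1, Pold2 and Mcm3 completed the higher genes at 0.76, 1.10, 0.70, 1.14 and 0.46. Pola2 was lower with hypoxia by 0.98 (SE 0.18, adjusted p = 7.52e-05), as were Rfc3, Pold3 and Cdt1 at -0.76, -0.49 and -0.62. The calls of Pola1, Pold2, Mcm3, Rfc3, Pold3 and Cdt1 were each lost without at least 1 single library, each of the 6 libraries ending at least 1 of them (adjusted p = 0.0505 to 0.222), and that of Cdt1 also with RPKM library totals (0.0682). Mcm2 (0.39 ± 0.40), Mcm5 (-0.04 ± 0.23), Rrm2 (0.30 ± 0.40) and Uhrf1 (0.47 ± 0.34) were not called.

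**Figure D5:**
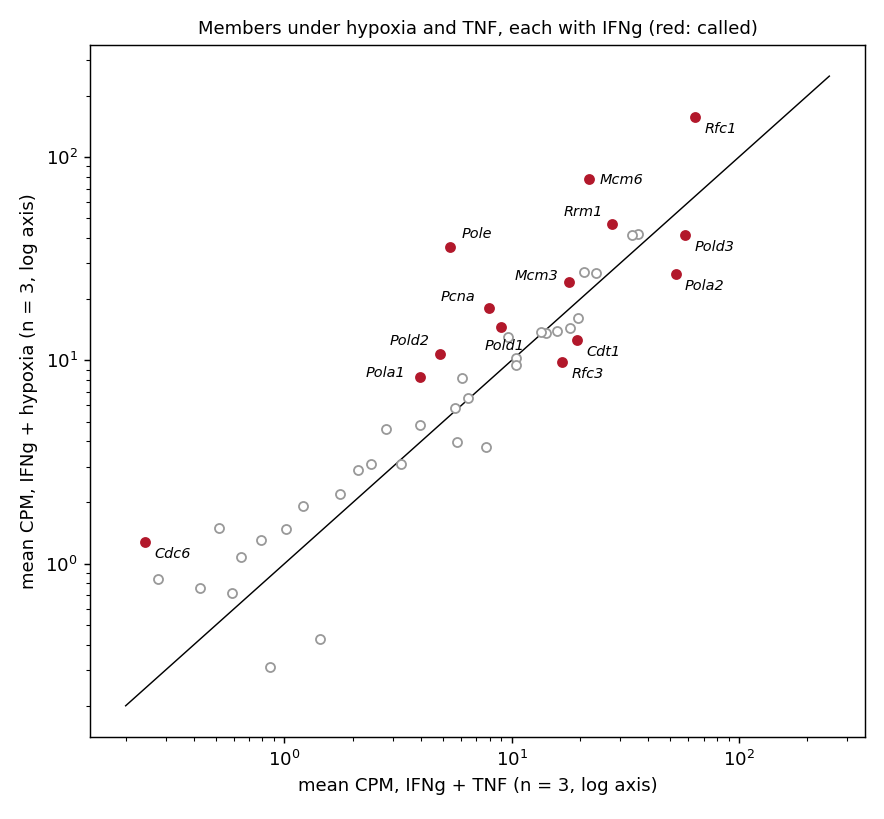
Mean CPM of each of the 47 genes with IFNg and TNF (x axis, log scale) and with IFNg and hypoxia (y axis, log scale), each from 3 libraries, with a line of equal level. Red points were called, 10 above the line led by Pole, Mcm6, Rfc1 and Pcna, and 4 under it including Pola2 and Pold3.

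Further replication factors, a list of 26 genes such as other origin, fork and termination proteins, was tested in the same model. With TNF 11 fell and 1 rose, with a median of -0.76, and the 46.2% called is near the 44.7% of all genes, so that count is no result about the list. With LPS 10 fell (median -0.44) and with hypoxia 10 fell (-0.56), or 38.5% each against 20.3% and 25.2% of all genes. Clspn, the fork protein that relays checkpoint signals, fell by 4.18 on the log2 scale with TNF, 3.20 with hypoxia and 2.31 with LPS. Ticrr, needed to load Cdc45, fell by 3.99 with TNF (adjusted p = 1.03e-07) and 2.75 with hypoxia. Mcm9, a helicase of DNA repair outside the Mcm ring, rose with TNF by 0.94 ± 0.16 (adjusted p = 1.58e-05), from 27.3, 35.9 and 28.5 CPM to 59.2, 52.7 and 63.6.

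Of the 32 E2F, cyclin and CDK regulators tested, 15 fell and 5 rose with TNF, 13 fell and 2 rose with LPS, and 13 fell and 2 rose with hypoxia. The shares called were 62.5%, 46.9% and 46.9%, against 44.7%, 20.3% and 25.2% of all genes. E2f1, an activating E2F, stood at 50.9, 36 and 50.7 CPM with IFNg and at 52.8, 50.2 and 34.8 with TNF. The libraries overlap, and it was not called with TNF (0.00 ± 0.18), hypoxia (-0.04 ± 0.18) or LPS (-0.33 ± 0.18). E2f2, another activator, fell by 1.64 with TNF (adjusted p = 1.11e-07), 0.55 with hypoxia and 0.64 with LPS. The atypical repressor E2f7 stood at 14.3, 17 and 10.8 CPM with IFNg and at 0.5, 0.131 and 0.471 with TNF. It fell by 5.22 with TNF (SE 0.54, adjusted p = 7.47e-09), 3.44 with hypoxia and 2.64 with LPS, and E2f8 fell by 2.53, 1.15 and 1.48.

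Among the cyclins, Ccne2, an S phase entry cyclin, fell by 1.86 with TNF, 1.62 with hypoxia and 1.75 with LPS, whereas Ccne1 was not called in any of them. Ccne1 had risen with IFNg, from 2.47, 7.03 and 3.93 CPM in the control to 37.8, 29.8 and 30.3 (2.88 ± 0.28, adjusted p = 6.05e-09). Ccnd1 and Ccnd2, cyclins that answer growth signals, were also higher with IFNg than in the control, by 2.36 and 2.87. In that comparison 7 of the 32 regulators rose and 2 fell (28.1%), close to the 23.6% of all genes, so the count is no result about the list. The split was 5 and 7 with RPKM library totals and 7 and 4 with DESeq2 size factors. With TNF, Ccnd2 rose further (1.96 ± 0.31) and Ccnd1 fell (-0.73 ± 0.21).

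Cdkn1a, the inhibitor of cyclin-dependent kinases known as p21, stood at 54.2, 70.3 and 48.9 CPM with IFNg and at 378, 176 and 385 with TNF. It rose by 2.44 ± 0.46 on the log2 scale with TNF (adjusted p = 0.000495), all 3 TNF libraries lying above IFNg. With hypoxia it was at 144, 121 and 103 CPM and with LPS at 148, 124 and 49.6, and neither was called (1.08 ± 0.44, adjusted p = 0.0945, and 0.89 ± 0.44, adjusted p = 0.193). Cdkn1b, its relative p27, rose with hypoxia by 1.87 ± 0.18 (adjusted p = 9.31e-09), from 22.1, 21.2 and 17 CPM to 67.7, 78.8 and 73.7. It also rose with TNF, by 1.42 ± 0.18 (adjusted p = 1.97e-07). Gmnn, the inhibitor of Cdt1, fell with TNF by 0.98 (SE 0.22, adjusted p = 0.000618) and was not called with hypoxia or LPS.

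In further deoxynucleotide metabolism, the largest change was in Samhd1, the enzyme that breaks down deoxynucleotide triphosphates. It stood at 743, 853 and 791 CPM in the control and at 3968, 4146 and 4049 with IFNg, a rise of 2.35 ± 0.10 (adjusted p = 9.99e-17). It was higher again with TNF (0.32 ± 0.09, adjusted p = 0.00617) and hypoxia (0.47 ± 0.09, adjusted p = 0.000424), and the TNF difference is no larger than the shift of all genes between the scalings. Of the 14 genes of this list tested, 6 fell and 2 rose with TNF, and 5 fell and 1 rose with hypoxia, or 7 and 1, and 6 and 0, with RPKM library totals. The shares called were 57.1% with TNF and 42.9% with hypoxia, against 44.7% and 25.2% of all genes. Dtymk, the next kinase after Tk1, fell with TNF by 1.66 (SE 0.45, adjusted p = 0.00351). Rrm2b, the reductase subunit used outside S phase, was at 0.886 to 3.18 CPM with IFNg and was not called in any comparison with IFNg. Of 10 replication checkpoint genes, 3 fell with TNF (5 with RPKM library totals), and this 30.0% is under the 44.7% of all genes called, so it is no result about the list. The largest fall was in the checkpoint kinase gene Chek1, at -3.84 ± 0.84 (adjusted p = 0.000458), which also fell with hypoxia (-3.72 ± 0.84).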

How the data were processed

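The authors deposited, per the file headers, a read count, a gene width in bases and an RPKM value per gene for each of 18 libraries. Per the labels' protocols, 100 ng of RNA went into a strand-marking mRNA kit, read from 1 end over 50 bases. The submitters' processing notes name GSNAP and mm10. Which program counted the reads, on which annotation and with which strand setting is not given in the sources used here. Of the widths, 86.7% are multiples of 3 and were treated as coding length. Gene identifiers were named through GENCODE M21 (22457 of 22598 matched). The deposited counts were tested with edgeR 4.0.16 (R 4.3.3): TMM, filterByExpr, robust glmQLFit and glmQLFTest in a single model of the 6 group means on the 18 libraries. This kept 11563 genes, and Benjamini-Hochberg adjustment ran over all of them, with 0.05 as the threshold. SE is the log2 fold change divided by the square root of F. Deposited RPKM values served only to recover library totals (22728833 to 39859629 reads) for an alternative scaling. TMM factors ran from 0.8051 to 1.186. Alternatives were DESeq2 1.42.0 and its size factors, no filter, only the 2 groups compared, a replicate block and leaving out each library. The fitting steps were tested on simulated data.

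The genes, roles, other lists, markers and motifs were chosen with earlier results of these data known. Library values are given for the genes of largest and smallest change with TNF in each role and for any gene against its role, and those of Orc1, Mcm6, Pole, Pcna, Rfc1, Dbf4, Cdc7 and Tk1 were added after their values were seen. From the other lists, up to 3 called genes in each direction are named per list and comparison, plus E2f1, E2f2, E2f7, E2f8, Ccne1, Ccne2, Ccnd1, Ccnd2, Cdkn1a, Gmnn, Rrm2b and Samhd1. Some genes of these lists are not reported here.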

Additional observations from a re-analysis of the deposited data

How the results depend on the processing

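DESeq2 and its size factors kept all 179 calls of single genes in the list. RPKM library totals lost 6 of them, testing without the filter 2, and fitting only the 2 groups compared 21, and no fold change of a called gene reversed. Fitting only the 2 groups called 13 genes for IFNg against control, 16 for LPS against TNF and 9 for hypoxia against TNF, where the spread rests on 6 libraries instead of 18. Shares of all genes called under the alternatives are not given here. Counts under any alternative therefore show only how the calls held, and are no result about the list. With RPKM library totals the median log2 fold change was -2.41 with TNF and -1.99 with hypoxia. Leaving out 1 library at a time gave these ranges of called genes and of medians: 5 to 8 and 0.29 to 0.40 for IFNg against control, 39 to 42 and -2.19 to -1.84 with TNF, 0 and 0.03 to 0.10 with IL1b, 25 to 28 and -1.32 to -1.09 with LPS, 37 to 40 and -1.89 to -1.73 with hypoxia, 21 to 28 and 0.83 to 1.05 for LPS against TNF, 13 to 20 and 0.46 to 0.65 for LPS against hypoxia, and 10 to 14 and 0.11 to 0.42 for hypoxia against TNF. The smallest median fall with TNF came without TNF library 3, and the causes of these shifts were not tested. Of 1074 such gene results, 116 lost the call.

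Replicate numbers are shared between groups, and the labels do not say what they stand for. In no comparison did all same-numbered pairs deviate together beyond r = 0.1. Library 1 matched its own number best in every comparison (r = 0.00871 to 0.233). These correlations cannot decide whether a number marks a shared mouse, culture or batch. With 3 pairs, each library matched its own number best for IFNg against control, LPS and hypoxia, and not for the others. With a replicate block the genes called were 8 for IFNg against control, 41 with TNF, 0 with IL1b, 28 with LPS, 40 with hypoxia, 27 for LPS against TNF, 22 for LPS against hypoxia and 15 for hypoxia against TNF. The block lost Pold2 (adjusted p = 0.0539) and Dut (0.0508) with hypoxia and Pole2 (0.0565) for LPS against TNF. Depth limits Orc1 and Cdc7 with hypoxia and Cdc6 and Dut with TNF, each under 20 counts in its group.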

Other observations

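Genes of ribonucleotide synthesis, which feed the deoxynucleotide pathway, also moved with the additions. Of 20 genes, 14 fell and 2 rose with TNF, 11 fell and 1 rose with hypoxia, and 3 fell and 1 rose with LPS. The shares called were 80.0%, 60.0% and 20.0%, against 44.7%, 25.2% and 20.3% of all genes, so the LPS count is no result about the list. Direct testing of LPS against TNF called 11 of the 20 higher and 1 lower with LPS. Of all genes, 25.3% were called there and 12.2% as higher. With RPKM library totals, which lower the median of all genes with TNF, 16 were higher. The share of all genes under those totals is not given here, so the 16 has no background. The inosine monophosphate dehydrogenase genes, which commit purines to guanine nucleotides, went apart. Impdh2 stood at 7.61, 5.42 and 10.9 CPM with IFNg and at 1.5, 1.45 and 0 with TNF (-2.97 ± 0.80, adjusted p = 0.00432 by edgeR). Impdh1 stood at 57.1, 43.6 and 56.6 CPM with IFNg, 122, 110 and 97.7 with TNF and 145, 117 and 126 with hypoxia, above IFNg in all 6 libraries (1.07 ± 0.16 and 1.30 ± 0.16).

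Of 9 genes for histone chaperones and chromatin copying, 3 rose and 4 fell with TNF (2 and 6 with RPKM library totals), and 5 fell with hypoxia (8 with those totals). The shares called were 77.8% and 55.6%, against 44.7% and 25.2% of all genes. Against TNF, 6 of the 9 were lower with hypoxia, where 39.0% of all genes were called and 18.9% as lower. The chaperone genes Asf1a and Asf1b moved in opposite directions with TNF, at 1.88 ± 0.31 (adjusted p = 1.8e-05) and -2.37 ± 0.22 (adjusted p = 1.17e-09). Asf1a stood at 6.1, 7.48 and 5.13 CPM with IFNg and at 22.2, 29.2 and 17.3 with TNF. Hat1, which acetylates new histones, stood at 92, 69.4 and 77.3 CPM with IFNg, 177, 182 and 187 with TNF and 61.6, 66.2 and 60.7 with hypoxia, and rose with TNF by 1.20 ± 0.14 (adjusted p = 8.97e-08).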
